A study of Homo sapiens with 4 samples.

Results

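The peaks of human chromosome 13 in CUT&Tag of CHAF1A were taken from both deposited peak lists by their chromosome name alone. They numbered 3042 of the 76151 peaks of the control list and 3988 of the 97492 peaks of the siRNA list on chromosomes 1 to 22 and X. The assay was run in RBE cells, an established line of human intrahepatic cholangiocarcinoma. The cells received a control siRNA (si-Ctrl, 2 samples) or an siRNA to CHAF1A (si-CHAF1A, 2 samples). They were harvested 48 h later, with 1000000 cells per group. The lists carry the names NC and si and are read here as those of the control and the CHAF1A siRNA groups. Each group has 1 list that does not separate its samples. No difference between the lists has a replicate check, and no test between conditions was made. RNA and protein of CHAF1A were not analysed here, so the knockdown and the identity of the cells could not be checked from these data.

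CHAF1A is the large subunit of CAF-1, the chaperone that deposits histones H3 and H4 on newly copied DNA. In CUT&Tag an antibody tethers the transposase Tn5, which cuts and tags the DNA nearby, and stretches with many tagged fragments are called as peaks. Chromosome 13 is acrocentric, with a short arm of repeats and ribosomal RNA genes and a gene-poor long arm that carries the tumour suppressors RB1 and BRCA2. Cancer lines often gain or lose chromosome arms, and more copies of a stretch give more fragments there at equal binding. Copy number was not measured here. Copies, density of sites and the ease with which reads can be placed cannot be told apart from peak lists.

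Most of the 5 highest peaks over chromosome 13 promoters covered a short shared sequence. Promoters were the windows from 250 bases before to 50 bases after RefSeq start sites (GRCh38.p14), and 434 windows belonged to protein-coding genes of chromosome 13. The element TCTCGCGA, searched on both strands, stood in 9 of them. Of these 9 promoters, 8 had a peak in both lists, and they belonged to 7 separate peaks because SKA3 and MRPL57 share 1. Of the 5 highest control peaks over promoters 4 covered the element, of the 10 highest also 4, and of all 180 there were 7. It was singled out of 10 motifs after their values had been seen, so its values are a description with no test. The element and its neighbouring bases are shown for each site, in capitals for the element or for its longer palindrome TCTCGCGAGA. The peaks covered these bases but are far wider, so covering the element does not by itself place it at a summit. Summits lay nearer the element at some sites than at others. In MICU2 the capitals are the element read on the other strand, TCGCGAGA. MRPL57 stands for its pair with SKA3, and POU4F1 is the promoter with the element and no peak.
UPF3A: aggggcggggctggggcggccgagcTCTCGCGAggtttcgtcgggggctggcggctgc
MICU2: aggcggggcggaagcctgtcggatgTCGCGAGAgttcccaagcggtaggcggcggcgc
MRPL57: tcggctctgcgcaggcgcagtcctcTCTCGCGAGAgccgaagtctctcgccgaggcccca
AKAP11: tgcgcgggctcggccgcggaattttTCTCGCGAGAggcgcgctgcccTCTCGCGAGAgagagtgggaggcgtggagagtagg
HSPH1: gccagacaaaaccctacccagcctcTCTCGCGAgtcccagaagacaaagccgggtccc
RBM26: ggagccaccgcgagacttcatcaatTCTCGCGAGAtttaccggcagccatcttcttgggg
LAMP1: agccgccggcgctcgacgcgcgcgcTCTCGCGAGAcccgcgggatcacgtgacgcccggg
POU4F1: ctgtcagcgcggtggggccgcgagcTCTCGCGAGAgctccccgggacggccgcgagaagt

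The sequences are those of the gene's own strand, 5′ to 3′, from RefSeq on GRCh38.p14, with 25 bases on each side. UPF3A lies at chr13:114281562-114281619 on the plus strand, MICU2 at chr13:21604186-21604243 on the minus strand and MRPL57 at chr13:21176576-21176635 on the plus strand. AKAP11, with 2 copies of the palindrome, lies at chr13:42271950-42272031 on the plus strand. HSPH1 (chr13:31162434-31162491), RBM26 (chr13:79406218-79406277) and POU4F1 (chr13:78603598-78603657) are on the minus strand, and LAMP1 (chr13:113297166-113297225) is on the plus strand. The capitals of UPF3A began 14 bases before its annotated start site and those of MICU2 48 bases before. In MRPL57 the distance was 57 bases, in HSPH1 78 and in AKAP11 177. In RBM26 they began past the start site. The summits, or highest points, of the control peaks lay 235 bases past the start site in UPF3A and 238 in MICU2, away from the element. They lay nearer the element in 4 others, 78 bases before the start site in MRPL57, 110 in AKAP11, 48 in RBM26 and 79 in LAMP1. The capitals of LAMP1 began 48 bases before its start site.

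The peak over the promoter of UPF3A, which takes part in the decay of mRNAs with early stop codons, had a fold enrichment of 18.7 in each list. Fold enrichment is the authors' ratio of the signal at the summit to its local background, and it is a value within each list. MICU2, a regulator of the mitochondrial calcium uniporter, had 16.3 (control) and 16 (siRNA). The peak between SKA3, a kinetochore gene, and MRPL57, a mitochondrial ribosome gene, had 15.5 and 15.8. AKAP11, an anchor of protein kinase A, had 14.3 and 13.1. These peaks held the first 3 and the fifth place among the control peaks over the chromosome's promoters. HSPH1, a heat shock chaperone gene, had 12.2 and 12.3, RBM26, an RNA-binding protein gene, 11.8 and 11.6, and LAMP1, a lysosomal membrane protein gene, 8.84 and 9.27. POU4F1, a neural transcription factor gene, had no peak over its promoter in either list, although its promoter holds the full palindrome.

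Over all chromosome 13 promoters with the element, the median fold of the peaks was 14.9 (quartiles 12.1 and 15.7, 8 promoters) in the control list. It was 5.85 (4.4 and 8.16, 227 promoters) without the element. The siRNA list gave medians of 14.4 and 5.00. The same order held on chromosomes outside 13, 14 and 15, where 291 of 321 promoters with the element had a control peak, with a median fold of 13 (9.85 and 15.3). Promoters without the element had a peak in 47.5% of cases there, with a median of 5.79. Chromosome 8 was not used for promoters. The element stood in 1.15% of all promoters of the table, in 1.58% of the protein-coding ones and in 3.74% of the 214 chromosome 13 promoters with a peak in both lists, against 0.562% of the 178 with a peak in neither. A match of letters is a description of the sequence and not a site of a factor.

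**Figure D1:**
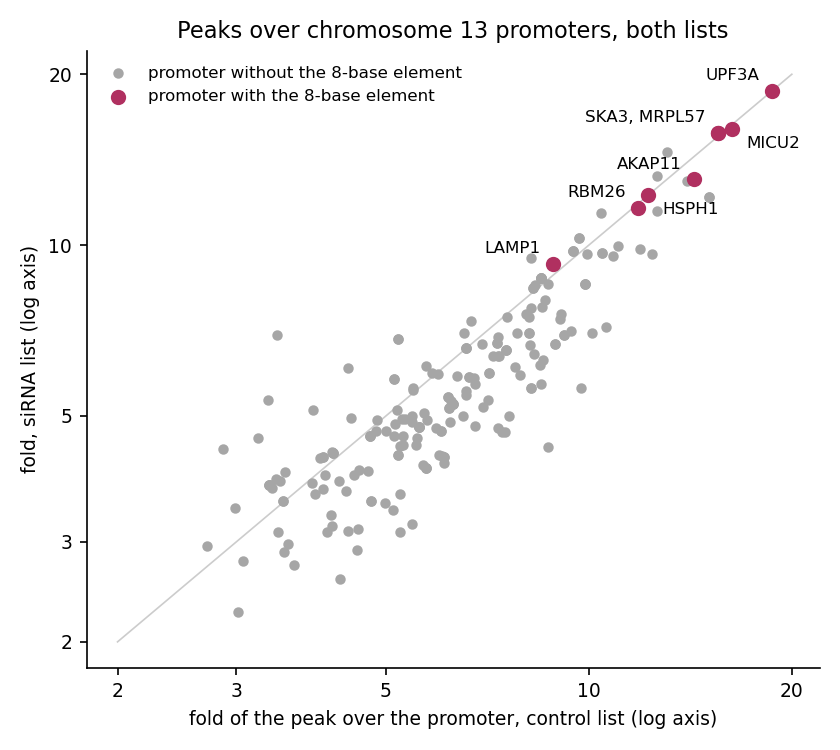
Fold enrichment of the highest peak over each protein-coding chromosome 13 promoter that had a peak in both lists, control list on the x axis and siRNA list on the y axis, both log axes. Red points are promoters with the 8-base element, grey points those without, and the line marks equal folds; the red points run from LAMP1 at 8.84 to UPF3A at 18.7 in the control list.

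Other features of the promoters followed whether they had a peak. Promoters with a peak in both lists held a median of 28.5 CpG dinucleotides in 300 bases, those with a peak in the control list only 21, those in the siRNA list only 17 and those in neither 9.5. The ETS core CCGGAAG stood in 21% of the promoters with a peak in both lists, in 3.37% of those in neither and in 12.8% of all protein-coding promoters. Over all protein-coding promoters with a peak in both lists its share was likewise 21.1%. Among promoters with a control peak, those with the ETS core had a median fold of 6.10 and those without it 6.01. The CCAAT box stood in 33.2% of the chromosome 13 promoters in both lists, 38.2% of those in neither and 34.6% of all protein-coding promoters. Over all protein-coding promoters the order was the opposite, with 38.2% in both lists and 32.2% in neither. On chromosome 13 the median control fold was 7.26 (quartiles 4.89 and 8.85, 78 promoters) with it and 5.6 (4.15 and 7.36, 157 promoters) without it. High promoter peaks without the 8-base element were those shared by DIS3, a ribonuclease of the RNA exosome, and PIBF1, a centrosome gene (fold 15.1 and 12.2), and of KBTBD6, an adaptor of a ubiquitin ligase (14 and 13). RFC3, a subunit of the clamp loader of DNA replication, had 13.1 and 14.6.

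Chromosome 13 had more peaks per protein-coding gene than any other chromosome compared. With 336 protein-coding genes it held 9.05 control peaks and 11.9 siRNA peaks per gene and ranked 1 of 23 in each list. The values were 3.95 and 5.00 on chromosome 14, 3.44 and 4.37 on chromosome 15, and 3.84 and 4.92 over all 23 chromosomes. Chromosome 10 came next with 6.01 and 7.69. Peaks per gene also rise where genes are few. Per 5 Mb window with at least 20 control peaks the difference was smaller, with medians of 119, 107.5 and 97.0 control peaks on chromosomes 13, 14 and 15. These medians were set beside no other chromosome, so they give no rank by length. By number of peaks alone, chromosome 13 ranked 13 of 23 in each list. With all stretches free of annotated genes left out on every chromosome, the values on chromosome 13 were 7.56 and 10.5, again rank 1 in each list. With peaks of −log10 q of at least 10 only, chromosome 13 held 4.36 control peaks per gene and kept rank 1. Per annotated gene of any kind the lead in the control list was small, with 2.00 beside 1.88 on chromosome 20 and 1.85 on chromosome 10. Without gene-free stretches the control value was 1.67, rank 5, below chromosome 20 at 1.72, while the siRNA value of 2.31 kept rank 1.

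The peaks were spread unevenly along the 20 windows of 5 Mb that hold them. The window from 15 to 20 Mb held 534 control and 522 siRNA peaks for 6 protein-coding genes, which is 89.0 control peaks per gene. The last window, from 110 to 115 Mb, which holds band 13q34, had 380 and 477 peaks for 40 genes. The window from 40 to 45 Mb had 228 and 283 peaks for 25 genes. These were the fullest windows, against a median of 119 control and 166.5 siRNA peaks.
The fewest control peaks were found from 55 to 60 Mb (39 control and 86 siRNA peaks, 7 genes), from 85 to 90 Mb (45 and 91, 4 genes) and from 65 to 70 Mb (46 and 85, 2 genes). On chromosome 14 the windows with at least 20 control peaks ranged from 26 to 428 around a median of 107.5. On chromosome 15 they ranged from 43 to 240 around 97.0.

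**Figure D2:**
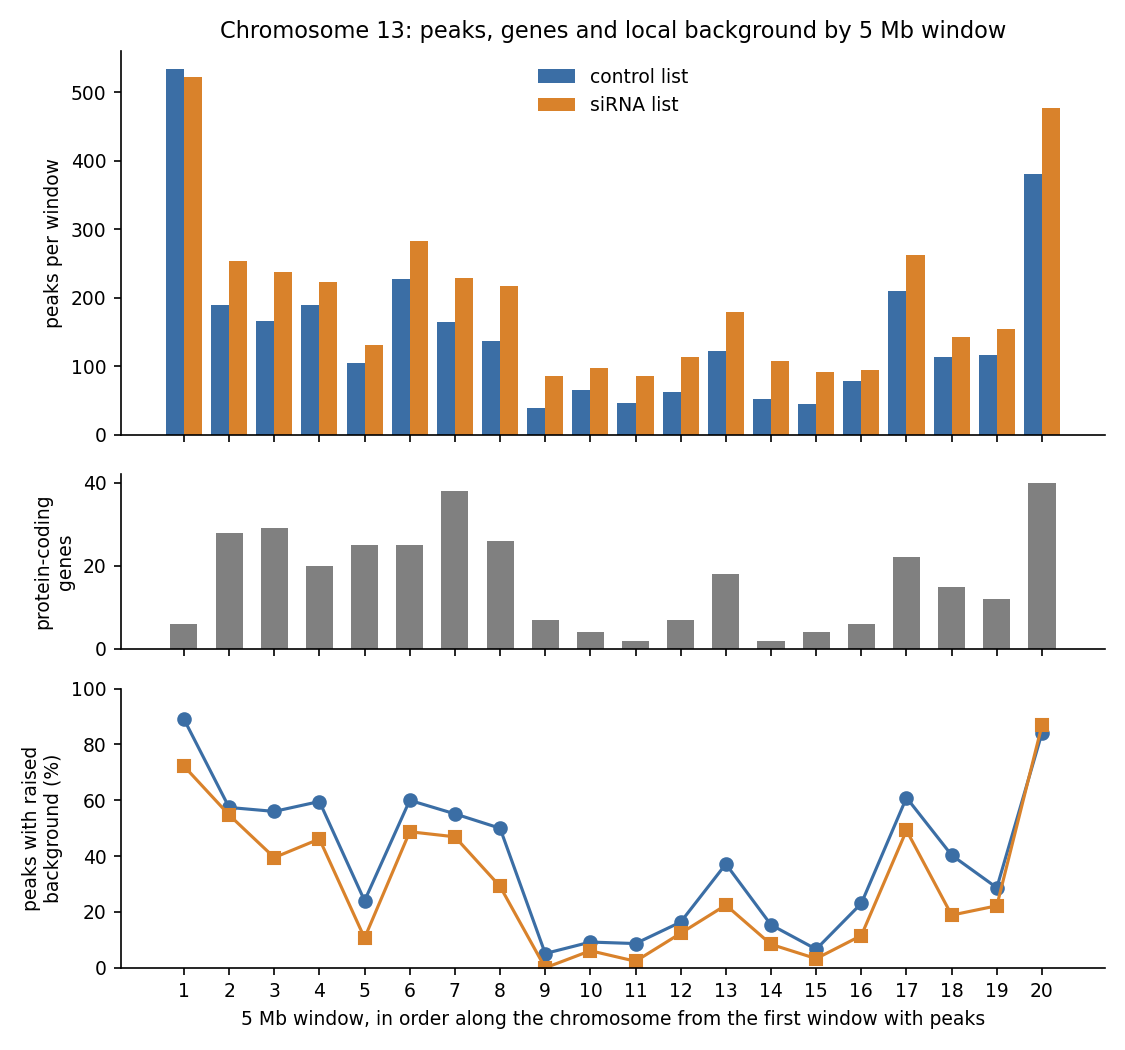
Chromosome 13 in 20 consecutive windows of 5 Mb, in order from the first window with peaks. Bars give peaks per window in the control and siRNA lists (top) and protein-coding genes (middle), and lines give the percentage of peaks with a raised local background in each list (bottom). Windows 1 and 20 hold the most peaks and the highest shares of raised background in both lists, and window 9, the lowest, holds 39 control peaks.

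Windows of like gene content were then set side by side, since windows with more genes held more peaks, from a median of 20.5 control peaks at 0 to 5 genes to 109 at 21 to 40 genes outside chromosomes 13, 14 and 15. With 11 to 20 protein-coding genes, the 4 windows of chromosome 13 held a median of 119 control peaks (range 114 to 189). The 8 windows of chromosomes 14 and 15 held a median of 67.5 (43 to 146), and the 160 windows of other chromosomes 64.5 (7 to 435). With 21 to 40 genes, the 8 windows of chromosome 13 held 178 (104 to 380), the 14 windows of chromosomes 14 and 15 107.5 and the 181 others 109. The ranges overlapped in both classes. Of the other chromosomes' windows, 14.4% in the first class and 16.6% in the second reached the median of chromosome 13.

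By chromosome, the median over windows of 11 to 40 genes was 165.5 control peaks on chromosome 13, which ranked 1 of 23. Chromosome 17 had 162, chromosome 10 146.5, chromosome 14 87.0 and chromosome 15 84.5. The lowest of the 12 chromosome 13 windows held 104 control peaks, more than the median windows of chromosomes 14 and 15. In the siRNA list the median was 226, again rank 1, beside 219 on chromosome 17. With −log10 q of at least 10 the median was 71.5 and ranked 2, below chromosome 17 at 76.0. Neighbouring windows of a chromosome are not independent samples, and no test of these ranks was made.

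**Figure D3:**
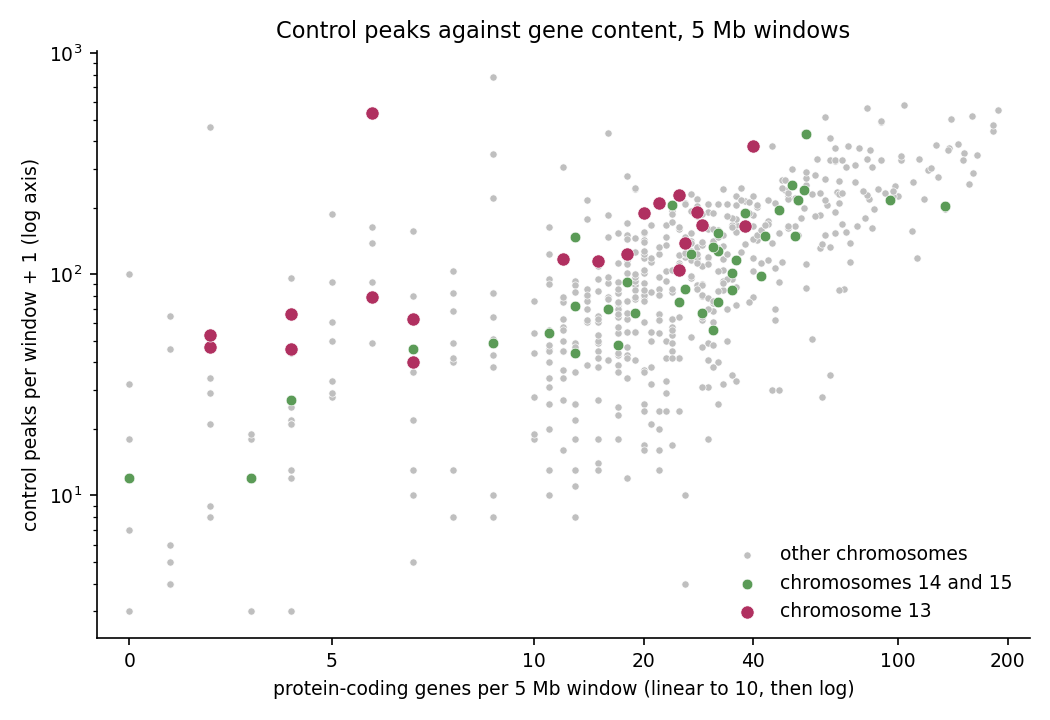
Control peaks plus 1 (log axis) against protein-coding genes per 5 Mb window (linear to 10 genes, then log), 1 point per window of chromosomes 1 to 22 and X. Chromosome 13 windows of 11 to 40 genes lie in the upper part of the cloud, with a median of 165.5 peaks, and chromosomes 14 and 15 nearer its middle.

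The local background gave a different picture from the number of peaks. The pileup and background of each summit, in overlapping reads, were solved from the deposited fold and −log10 p. The most frequent background in a list, here called the list background, came to 6.34 reads (control) and 8.49 reads (siRNA), a ratio of 1.34. The background of a peak is not set below it, so a stretch with fewer reads than average cannot show as such. A peak was called raised where its background lay at least 25% above the list value.

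In the control list, 1726 of 3027 solved chromosome 13 peaks (57%, 55.2 to 58.8) were raised, beside 64.2% of all control peaks. The share was 67.8% on chromosome 14 and 59.6% on chromosome 15, and chromosome 13 ranked 16 of 23. In the siRNA list, 1715 of 3968 peaks (43.2%, 41.7 to 44.8) were raised, beside 58.8% of all siRNA peaks, 64.7% on chromosome 14 and 57.2% on chromosome 15. That was rank 21. Intervals here are 95% exact binomial (Clopper-Pearson) intervals that cover counting error only. A background of at least 2 times the list value was found at 18.7% of control and 12.3% of siRNA peaks, ranks 21 and 22.

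Within classes of gene content the share of raised backgrounds differed by class and by list. In windows of 11 to 20 genes, 43.9% of chromosome 13 control peaks were raised, beside 49.7% on chromosomes 14 and 15 and 43.7% on the others. In windows of 21 to 40 genes the shares were 61.5%, 55.9% and 55.9%. In the poorer classes of 0 to 5 genes they were 10.1%, 20.8% and 29.2%, and of 6 to 10 genes 70.9%, 34.8% and 50.6%. Gene-free stretches are kept in these shares. Of the 713 chromosome 13 control peaks at 6 to 10 genes, 534 lay in the window from 15 to 20 Mb, where 89.1% were raised. The other windows of that class, from 55 to 60, 70 to 75 and 90 to 95 Mb, had 5.13%, 16.4% and 23.1%. In the siRNA list they were 29.2%, 46.5% and 34.6% at 11 to 20 genes and 52.5%, 51.6% and 48.1% at 21 to 40 genes. The median pileup of control peaks within 1 kb of a protein-coding gene end was 61.0 reads on chromosome 13, 67.5 on chromosome 14, 53.0 on chromosome 15 and 64.0 over all.

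The shares of raised backgrounds were highest in the first and the last window. They were found at 89.1% of control and 72.3% of siRNA peaks from 15 to 20 Mb, and at 84.1% and 86.9% from 110 to 115 Mb. From 95 to 100 Mb the shares were 61% and 49.2%. In 7 control windows and 10 siRNA windows the median background lay within 1% of the list value. Chromosome 14 had 1 and 4 such windows, and chromosome 15 had 0 and 1. Most of those on chromosome 13 lay in the gene-poor middle of the arm.

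The highest backgrounds of the control list on chromosome 13 stood beside ING1, a chromatin reader of the inhibitor of growth family, and CARS2, the mitochondrial cysteinyl-tRNA synthetase. A peak at chr13:110712375-110713653 had a background of 74.4 reads, 11.7 times the list value, below a pileup of 356 reads and a fold of 4.73. The siRNA list had 58.6 reads, 6.91 times its list value, below the peak at chr13:110712331-110713671. The highest background of the siRNA list on this chromosome, 63.2 reads or 7.45 times, lay under a peak inside GAS6, a ligand of TAM receptor kinases, at chr13:113837767-113839175. These sites lie in 13q34, the window with the most protein-coding genes on the chromosome. Strong peaks stood close together beside ING1, among them chr13:110715313-110715864 with a control pileup of 453 reads. Whether neighbouring peaks add to a local background was not tested, so these values do not show a gain of copies.

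Many of the peaks at the start of the chromosome lay in a stretch with no annotated gene. It runs from the first peak at 16008293 to the end of the last peak at 18173401, 2.17 Mb in all, and the build models the centromere's alpha satellite arrays in this part of the chromosome. Repeats were not annotated here, so the overlap with satellites was not tested. The stretch held 502 control peaks (16.5% of the chromosome's) and 471 siRNA peaks (11.8%). Among the 27 gene-free stretches of at least 1 Mb with peaks, it ranked 2 by control peaks, after 1 on chromosome 1 with 757. Density was counted over the span from the first to the last peak of a stretch. By that measure it was the densest of the 20 stretches with at least 10 control peaks, at 232 control peaks per Mb, ahead of 140 on chromosome 11. The stretch on chromosome 1 spans 21.7 Mb, so its density of 34.9 depends on that span. Its neighbouring control summits were closer, a median of 2723 bp apart beside 3056 bp on chromosome 13. The matching stretches of the acrocentric chromosomes 14 and 15 held 6 and 11 control peaks.

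The peaks of this stretch were mostly shared between the lists. Their median fold was 4.74 (control) and 4.71 (siRNA), beside 3.68 and 3.27 for chromosome 13 peaks outside it and away from protein-coding gene ends. Their median widths were 300 and 333 bp, and neighbouring summits were a median of 3056 and 3184 bp apart. A counterpart in the other list lay over 79.9% (76.1 to 83.3) of the control and 84.3% (80.7 to 87.5) of the siRNA peaks. Raised backgrounds were found at 91.0% and 75.7%. The highest peak by −log10 q, at chr13:17337440-17337754, had a fold of 25.3, and its siRNA counterpart at chr13:17337451-17337737 had 23.2. The sources used here do not say how the authors treated reads that fit several places.

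Away from that stretch, a smaller share of chromosome 13 peaks lay near gene starts than on chromosomes 14 and 15. The chromosome has few protein-coding genes (336), and the part of gene density in these distances was not tested. Its genes did not lack peaks, as 67.3% had a control peak at an end, beside 61.6% of all protein-coding genes. Of the control peaks outside gene-free stretches, 8.66% (7.60 to 9.82) lay within 1 kb of a protein-coding start site, beside 15.4% on chromosome 14, 16.4% on chromosome 15 and 14.6% over the chromosomes compared, 8 not included. At 100 to 1000 kb from a start lay 33.3% (31.5 to 35.2), beside 19.0%, 17.5% and 20.7%. Counted within 1 kb of either gene end, with the gene-free stretch kept in the total, 238 control peaks (7.82%, 6.89 to 8.84) qualified. This compares with 17.5% of all control peaks and was the lowest share of the 23 chromosomes. The siRNA list had 262 (6.57%, 5.82 to 7.38) beside 15.1% of all siRNA peaks. Without the stretch the chromosome 13 shares were 9.37% (control) and 7.45% (siRNA). The median control fold was 5.32 under 1 kb, 3.68 at 10 to 100 kb and 3.78 at 100 to 1000 kb.

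**Figure D4:**
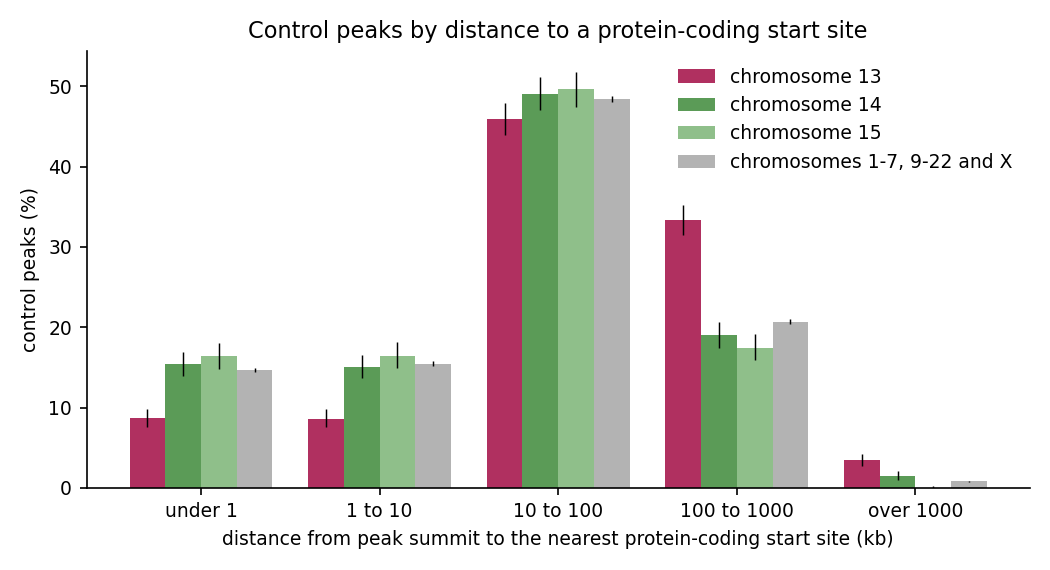
Percentage of control peaks by distance from the summit to the nearest protein-coding start site, for chromosomes 13, 14 and 15 and for all chromosomes compared except 8, without gene-free stretches. Error bars are 95% exact binomial intervals that cover counting error only. Chromosome 13 has the lowest bar under 1 kb (8.66%) and the highest at 100 to 1000 kb (33.3%).

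Among peaks away from gene ends, the highest was a shared peak in no annotated gene, 362 kb from the nearest protein-coding start site, with folds of 43.7 and 41.9 (chr13:109424132-109424332). The siRNA and control peaks there had the same borders, 201 bp apart, and −log10 q values of 38298.6 (control) and 38372.5 (siRNA), far above the next highest. Its pileup and background were not solved. Whether reads that fit several places add to this peak was not tested. A shared peak at chr13:18211734-18212543 in FAM230C, a long noncoding RNA gene, had 22.8 and 21.8. Peaks of 1 list only were lower. The highest by −log10 q in the control list alone lay in COL4A2, a basement membrane collagen gene (chr13:110419089-110420178, fold 8.14), in LMO7 (chr13:75716948-75717317, 9.56) and in no gene (chr13:44815737-44816043, 5.02). In the siRNA list alone they lay in the gene-free stretch at chr13:16889171-16889378 (8.02) and chr13:16605764-16605949 (6.50) and in FARP1 (chr13:98443451-98443942, 4.29), a gene of neuronal signalling.

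The lists overlapped on chromosome 13 to about the same extent as elsewhere. A siRNA peak met 1875 control peaks (61.6%, 59.9 to 63.4) in 1 bp or more, beside 61.8% over all chromosomes. A control peak met 1850 siRNA peaks (46.4%, 44.8 to 48.0), beside 47.5%. Shares near the background are no result about chromosome 13. They differed by place within it. At gene ends 87.4% (82.5 to 91.3) of control and 75.2% (69.5 to 80.3) of siRNA peaks were shared, and away from both gene ends and the gene-free stretch 55.0% (52.9 to 57) and 38.6% (36.9 to 40.3). Peak height moved with place, and its part in the sharing was not tested.

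The siRNA list had 1.31 times as many chromosome 13 peaks as the control list, beside 1.28 over all chromosomes, 1.27 on chromosome 14 and 1.27 on chromosome 15. Inside the gene-free stretch the ratio was 0.938. Without gene-free stretches it was 1.38 (95% interval 1.32 to 1.46) on chromosome 13, rank 2 after 1.65 on the X chromosome, and 1.29 over all. At a −log10 q of at least 10, also without those stretches, it was 1.08 (0.996 to 1.18) on chromosome 13 and 1.05 over all. The list background was 1.34 times higher in the siRNA list, and its part in these ratios was not tested.

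The ratio varied along the chromosome. It was 2.21 (1.49 to 3.31) from 55 to 60 Mb, 2.06 (1.46 to 2.92) from 80 to 85 Mb and 2.02 (1.40 to 2.96) from 85 to 90 Mb, all windows with at most 7 protein-coding genes. It was lowest from 15 to 20 Mb (0.978, 0.865 to 1.10), from 30 to 35 Mb (1.18, 0.968 to 1.44) and from 90 to 95 Mb (1.22, 0.893 to 1.66). Above the ratio of all chromosomes lay 12 of 20 windows, beside 47.6% of all windows with at least 20 control peaks. Over the 4 windows of at most 5 genes, 208 control and 381 siRNA peaks gave a ratio of 1.83 (1.54 to 2.18). The windows of chromosomes other than 13 to 15 with as few genes gave 1.47 (1.35 to 1.59) without gene-free stretches. At −log10 q of at least 10 the ratios were 1.53 (1.10 to 2.15) and 1.20 (1.05 to 1.37), with overlapping intervals.

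Sharing in the window with the highest ratio, from 55 to 60 Mb, restates that ratio in part. There 26.7% of the 86 siRNA peaks and 59.0% of the 39 control peaks were shared. With so few control peaks the siRNA share could hardly be high, so it is no separate observation. The control share was near the 61.6% of the whole chromosome. In that window 6 control and 19 siRNA peaks had a −log10 q of at least 10. The median fold there was 3.81 (control) and 3.37 (siRNA). Over all of chromosome 13 the median fold was 3.85 (quartiles 3.32 and 5.00) and 3.37 (2.97 and 4.05). Chromosome 14 had 3.59 and 3.10, and chromosome 15 3.88 and 3.27. Along the windows the median control fold ran from 3.41 in the last window to 4.69 in the first.

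Of the 336 protein-coding genes of chromosome 13, 209 (62.2%, 56.8 to 67.4) had a peak within 1 kb of an end in both lists, beside 56.7% of all protein-coding genes. In the control list alone 17 genes (5.06%) had one, beside 4.93%, and in the siRNA list alone 30 (8.93%), beside 8.12%. By list, 226 genes (67.3%, beside 61.6%) were marked in the control and 239 (71.1%, beside 64.8%) in the siRNA list. Genes marked in 1 list had low peaks. Their median fold was 3.66 (control) and 3.29 (siRNA), with highest values of 4.77 and 4.41, against 6.03 and 5.12 for the genes marked in both. Gene ends were the outermost ends, so inner start sites were missed. Of the genes without a control peak at an end, 16 had one over a promoter window, among them KLF5 (11.1 and 9.96), a transcription factor gene of epithelia, and of those without a siRNA peak 14. Counted at an end or over a promoter, 225 genes (67.0%) had a peak in both lists, beside 59.2% of the genes on chromosomes with promoters in the table. By promoter window, 235 of 434 (54.1%) had a peak in the control list, beside 48.4%, and 235 in the siRNA list, beside 49.5%.

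In the lists that follow, marked means a peak within 1 kb of an outermost end, as found in both lists for 56.7% of all protein-coding genes. Of 21 genome maintenance and cell cycle genes, 20 had a peak in both lists and 1, LIG4, in the siRNA list only. The median control fold of the marked genes was 6.77. SUGT1, a co-chaperone needed at kinetochores, had 12.6 and 13.3. BRCA2, of homologous recombination, had 4.03 and 4.23. RB1, the brake on entry into S phase, had 4.87 and 4.31 at its 5′ end (chr13:48303348-48304069 and chr13:48303282-48304136). LIG4, the ligase of end joining, is counted by a weak siRNA peak of fold 2.83 at its outermost start, while 3 of its inner promoters had a peak in both lists.

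Of 25 genes of transcription, chromatin and RNA, 23 were marked in both lists, with a median control fold of 6.60. The exceptions were PSPC1, a paraspeckle protein gene, with 3.37 in the control list only, and GTF3A, the 5S ribosomal RNA transcription factor, with 2.89 in the siRNA list only. Of 18 genes of ubiquitin and protein turnover, 16 were marked in both, among them KBTBD7 with 10.8 and 9.43 and the deubiquitinase UCHL3 with 9.87 and 8.55. The ubiquitin ligase MYCBP2 had 3.77 in the control list only, in a peak it shares with the adjoining LOC127898562. Of 10 mitochondrial genes, 9 were marked in both, among them SUCLA2, a subunit of succinyl-CoA ligase, with 9.10 and 7.55.

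Of 22 neural adhesion and channel genes, 10 had a peak in both lists, 8 in neither, 1 with the control siRNA only and 3 with the CHAF1A siRNA only. The list is loose and also holds genes of other kinds, such as the formin DIAPH3 (10.9 and 9.56) and the transcription factor DACH1, both marked in both lists. The marked ones included the protocadherin PCDH9 (8.21 and 7.76) and the glypican GPC5 (9.74 and 5.59). GPC6 had none at its ends but 5.54 and 4.44 over an inner promoter. With promoters counted, 13 of the 22 had a peak in both lists, which is close to the share of all genes. Of 12 developmental transcription factors, 7 were marked in both, or 9 with promoters counted, with folds such as 4.49 and 3.94 at ZIC2, 6.54 and 7.01 at DACH1 and 4.70 and 4.00 at GSX1. ZIC5 had 3.34 in the control list only, and the siRNA peak that marks POU4F1, of fold 2.71, lay outside its promoter window. Of 10 vessel and matrix genes, 3 were marked in both and 4, including both collagen IV genes COL4A1 and COL4A2, in neither.

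The list of immune cell markers had the lowest share of the 11 lists with a peak in both, at 2 of 8 beside 3 of 10 vessel and matrix genes. RNA was not analysed here, so whether the line expresses the immune genes is not known. Of these 8 immune genes 2 had a peak in both lists, 1 in each list alone and 4 in neither. LCP1, an actin bundler of leukocytes, had its peak (6.08 and 5.28) at the 3′ end, 55.4 kb from its start site. GPR183, a receptor of lymphocytes, had 3.83 and 4.12 upstream of its start site. The peak counted for ALOX5AP lay past its 3′ end (2.89, control only), as did that of the receptor kinase FLT3 (4.26, siRNA only). None of these peaks lay over a promoter window.

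Of 11 liver, bile and transport genes, 6 were marked in both lists. ATP7B, the copper exporter of bile, had 9.48 and 9.75 in a peak it shares with ALG11, and the lysosomal transporter SLC46A3 10.6 and 7.19. At CPB2, a carboxypeptidase secreted by liver, the peak of 6.94 and 6.69 lay past the 3′ end, over the promoter of the adjoining ZC3H13. The clotting factor gene F10 (2.70) and the peptide transporter SLC15A1 (3.66) were marked by low peaks in the control list only, F7 (2.19) and PROZ (2.43) in the siRNA list only, and SLC10A2, the ileal bile acid transporter, in neither.

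Around RB1 in 13q14, 20 of 26 matched genes were marked in both lists, 4 in neither and 2 with the CHAF1A siRNA only. The median control fold was 7.61. The peak between SETDB2, a histone methyltransferase gene, and CAB39L had 10.4 and 9.67, and WDFY2 11.6 and 11.2. The genes marked in the siRNA list only were LPAR6 (3.48) and KCNRG (3.13). In the list of the 13q34 end, 23 of 35 genes were marked in both, 8 in neither, 1 with the control siRNA only and 3 with the CHAF1A siRNA only. The median control fold was 4.75. Among those marked with the CHAF1A siRNA only is LIG4, which lies before the last window, at chr13:108207442-108218349. ATP11A, a lipid flippase gene, had 10.5 and 8.50 at its 3′ part. The median control fold of marked genes was thus lower in the 13q34 list than in the 13q14 list, although UPF3A, at 18.7, is in the 13q34 list. The last window had the higher backgrounds. Background is the divisor of fold, so these are not separate observations.

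**Figure D5:**
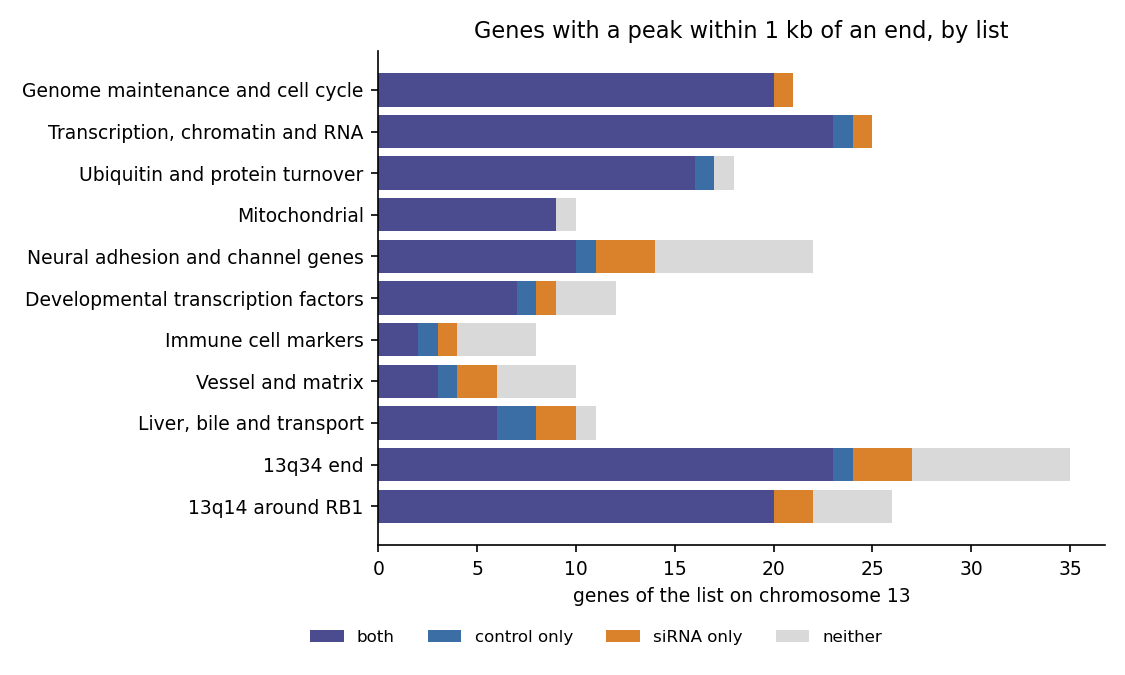
Genes of 11 lists on chromosome 13 by whether a peak lay within 1 kb of an end in both lists, the control list only, the siRNA list only or neither. Bars count genes; in the genome maintenance list 20 of 21 genes have a peak in both lists, and in the immune list 2 of 8.

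Of the 34 microRNA hairpins of chromosome 13, 5 had a control and 6 a siRNA peak within 1 kb (14.7% and 17.6%), beside 21.5% and 24.9% of all hairpins in the table. The MIR17 to MIR92A1 cluster and the pair MIR15A and MIR16-1, a locus often deleted in leukaemia, had none within 1 kb in either list. Promoters of the longer transcripts that hold hairpins can lie farther away and were not looked at here. MIR3170 had folds of 7.31 and 6.07, MIR8075 5.68 and 4.15, and MIR3665 4.40 and 6.08. Of 458 promoters of long noncoding RNA genes on the chromosome, 79 (17.2%, 13.9 to 21) had a control and 91 (19.9%, 16.3 to 23.8) a siRNA peak, beside 19.8% and 20.6% of all such promoters and the 54.1% of the chromosome's protein-coding promoters in each list.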

How the data were processed

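CHAF1A CUT&Tag peaks were analysed from 1 deposited list per siRNA group, each of 2 samples. MACS2 2.1.2 and deepTools 3.4.3 are named per the submitters' processing notes, as are hg38, Bowtie2 2.2.5 for alignment and fastp 0.20.1. Pooling of samples and any control library are not given in the sources used here. In the deposited lists, fold is a linear ratio, p and q are −log10 values, and the score, which was not used, is a whole number. The lowest deposited −log10 p was 5.00 in each list. No per-sample column was set aside (0).

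Pileup and background were solved from (pileup + 1)/(background + 1) and the Poisson tail for −log10 p under 290, for 99.5% of chromosome 13 peaks in each list. The method and the overlap rule were tested on simulated data. The list background, 6.34 and 8.49 reads, stands for depth, since read totals were not used here. Sharing was overlap by at least 1 bp. Genes, promoters and hairpins came from RefSeq tables of GRCh38.p14, matched by chromosome and position. A total of 12 gene rows on scaffolds were left out. Promoters covered 299 of the 336 protein-coding genes. Motifs were searched on both strands (10, and a palindrome that contains 1 of them).

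The members, lists and motifs were chosen with earlier results of these data known. Named genes were the 8 highest by control −log10 q with peaks in both lists, the 5 highest in either list alone, and up to 3 plus 2 per gene list. Some of these are not described. BRCA2, RB1, HSPH1, KLF5, GPC6, F7, SLC10A2, COL4A1, COL4A2, ING1, CARS2 and GAS6 were named outside that rule, after their values had been seen. Alternatives were −log10 q of at least 5 or 10, equal numbers of peaks, 50% reciprocal overlap, 3 kb gene ends, 1.5 times the background, shifted windows, all genes and, chosen after seeing the data, omission of the gene-free stretch and a peak at an end or over a promoter. Scripts ran in Python 3.11.15 with scipy 1.17.1, pandas 2.3.3, matplotlib 3.10.9 and numpy 2.4.6.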

Additional observations from a re-analysis of the deposited data

How the results depend on the processing

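On chromosome 13, the siRNA to control ratio of 1.31 moved to 1.05 at −log10 q of at least 10, to 1.03 with equal numbers of peaks and to 1.38 without the gene-free stretch, and 12 windows above the ratio of all chromosomes became 5 at −log10 q of at least 10. The shared control peaks (61.6%) came to 63.8% and 67.8% at −log10 q of at least 5 and 10, 57.5% with equal numbers, 44.6% with 50% reciprocal overlap and 58.0% without the stretch. The shared siRNA peaks (46.4%) came to 49.0%, 63.7%, 55.1%, 34.1% and 41.3%. The median fold came to 4.00 and 3.48 at −log10 q of at least 5 and to 3.76 and 3.31 without the stretch. Raised backgrounds were found at 41.0% of control and 30.7% of siRNA peaks with −log10 q under 10, at 40.5% and 27.7% with a limit of 1.5 times, at 54.6% and 40.8% without gene ends and at 50.3% and 38.9% without the stretch. Control peaks per gene came to 4.36 at −log10 q of at least 10 and to 2.00 over all genes. The share at gene ends came to 12.8% at −log10 q of at least 10, 11.6% with 3 kb and 9.37% without the stretch. The cause of these moves was not tested. The counts of genes marked in both lists or in 1 stayed within 1.5 times under every alternative run. No paired analysis was possible because the lists do not keep the samples apart, and for the same reason no sample could be left out. The list backgrounds differ by 1.34 times, and the part of depth in the weak peaks was not tested. A background below the list value cannot be seen.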
